A study of Homo sapiens with 23 samples.

Results

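These data describe the transcriptional response to 4 h of tamoxifen, given to induce Src, in mammary epithelial cells that had been depleted of STAT3 RNA. The arrays were chosen by their sample titles: the 3 titled siSTAT3 with TAM (tamoxifen) at 4 h were compared with the 3 titled siSTAT3 with EtOH (ethanol, the vehicle) at 4 h, which makes 6 of the 23 expression arrays of the series. All cells were MCF10A-ER-Src, a single line derived from the non-transformed breast line MCF-10A, in which the v-Src oncoprotein is joined to the hormone-binding domain of the estrogen receptor, so that the ligand switches the kinase on. The siSTAT3 cells had been grown for 48 h with 25 nM of an siRNA pool against STAT3 and were then given 1 µM 4-hydroxytamoxifen or ethanol for 4 h. The siSCM cells, named siNEG in the sample titles, had received a non-targeting pool at the same concentration and the same treatments, with 3 arrays each for TAM and EtOH at 4 h. A further 2 arrays of siSTAT3 cells with TAM and 3 with EtOH, all at 24 h, are used for a comparison in time. Cells of every group grew with EGF, hydrocortisone, insulin and cholera toxin, so the EtOH cells had growth factors as well. Replicates are described in the methods as biological, and nothing in the labels says that they came from separate cultures, so the p-values measure only the spread between these samples.

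Src is a tyrosine kinase that signals through adhesion sites, through the Ras, MEK and ERK kinases, and by phosphorylating STAT3, a transcription factor that also carries the signal of interleukin 6 family cytokines. NF-κB factors are held inactive by inhibitor proteins until a stimulus releases them, and many of their target genes encode inflammatory cytokines together with proteins that shut the pathway off again. In the ER-Src model both factors take part in an inflammatory loop that accompanies transformation. Cells with little STAT3 show which early responses to TAM were still measurable.

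Signals are MAS5 values in arbitrary units on a linear scale, 1 per probe set and array. On the 6 arrays the median signal was 74.2 to 79.1 units, 44.6% to 45.6% of the 54675 probe sets lay above 100 units, and the ratio of 3′ to 5′ signal was 1.21 to 1.38 for ACTB and 0.917 to 0.992 for GAPDH. All 5 measured markers of basal epithelial cells and 5 of 7 of luminal cells reached 100 units, against 2 of 6 of fibroblasts, 1 of 4 of immune cells and 1 of 5 of endothelial cells. Basal markers summed to 44226 to 48993 units on the TAM arrays and 42769 to 44655 units on the EtOH arrays, and luminal markers to 27023 to 30941 units and 24802 to 26142 units. Markers of fibroblasts summed to 2309 to 2503 units with TAM and 2059 to 2319 units with EtOH, those of immune cells to 463 to 519 units and 517 to 557 units, and those of endothelial cells to 218 to 303 units and 289 to 358 units. No marker gene was called between TAM and EtOH (limma, 4 of 27 markers at an unadjusted p under 0.05), and MAS5 gives no value of 0. In such bulk RNA, fewer cells of a type and less RNA per cell cannot be told apart. The number of arrays limits the precision of every value.

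STAT3 was low on all 6 arrays by 3 of its 4 probe sets. By its probe set of highest signal it measured 475, 406 and 393 units with TAM and 339, 355 and 298 units with EtOH in siSTAT3 cells, against 5626, 5974 and 5128 units and 4091, 4061 and 3914 units in siSCM cells. The siSTAT3 arrays did not overlap the siSCM arrays under either treatment, and the log2 difference between siSTAT3 and siSCM cells was -3.72 with TAM (adjusted p = 7.99e-11) and -3.61 with EtOH (adjusted p = 3.86e-10). The TAM effect on this probe set in siSTAT3 cells was 0.36 on the log2 scale (SE 0.13, adjusted p = 0.384). The other bright STAT3 probe sets gave 0.56 (SE 0.19, adjusted p = 0.313) and 0.19 (SE 0.24, adjusted p = 0.901), and a dim one, with means of 68.9 units with TAM and 75.9 units with EtOH, gave -0.13 (SE 0.16, adjusted p = 0.901). The dim probe set was lower in siSTAT3 than in siSCM cells with TAM (log2 -0.82, adjusted p = 0.0039) but had -0.068 with EtOH (adjusted p = 0.915). No TAM effect on STAT3 passed the test. STAT3 protein was not measured on these arrays.

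TAM for 4 h, given to induce Src, changed a small set of genes in siSTAT3 cells. No array is of cells without ER-Src, and Src activity was not measured on the arrays. Whether TAM had effects apart from Src was thus not tested. Of 19775 genes, 105 rose (0.531%) and 57 fell (0.288%) with TAM against EtOH, by a limma model of log2 signal over all 23 arrays with Benjamini-Hochberg adjustment over all probe sets and a limit of 0.05. A gene is given by its probe set of highest mean signal. The rises had a median log2 fold change of 0.59 with a range of 0.32 to 3.43, and 16 of the 101 with at least 100 units in the higher group exceeded 1. The falls had a median size of 0.52, and SPRR1B alone exceeded 1 among the 50 with at least 100 units. The median over all genes was -0.017. The 3 TAM arrays and the 3 EtOH arrays did not overlap for any of the 162 genes, which were picked on these arrays, nor for 16.2% of all genes. Of 158 other probe sets for 89 of these genes, 153 moved the same way and 43 were called. With only these 6 arrays in the limma fit, 0 genes were called (lowest adjusted p = 0.103). In that fit 1370 genes had an unadjusted p under 0.05, among them all 162. The calls were thus made only with other arrays in the fit, and the cause was not tested. Among single arrays left out, the rises numbered 56 without EtOH replicate 1, 65 without EtOH replicate 2, 64 without TAM replicate 1 and 51 without TAM replicate 2, and the falls 21, 25 and 22 without EtOH replicates 1, 2 and 3, and 30 and 26 without TAM replicates 1 and 2. The call was kept through every such loss by 46 of the rises and 12 of the falls.

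**Figure D1:**
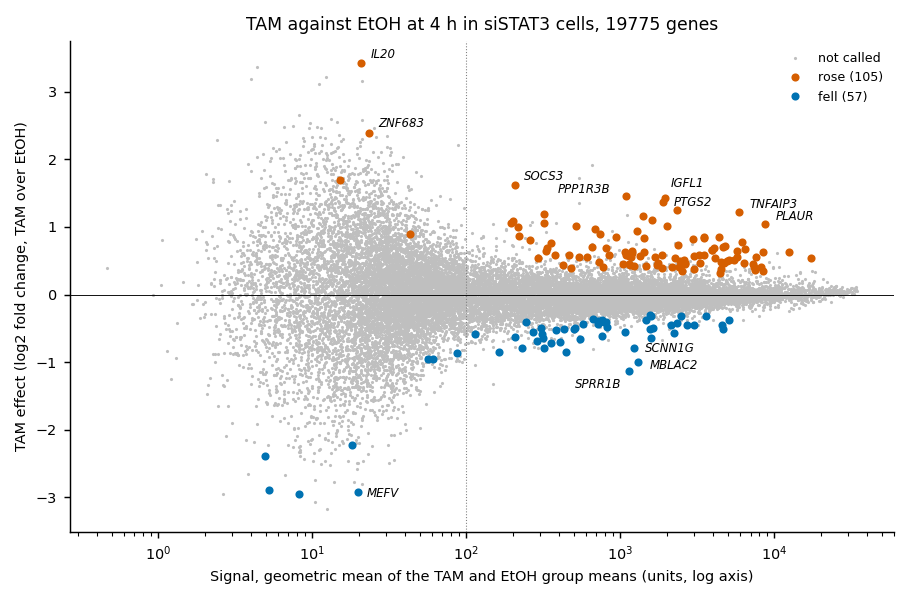
TAM effect at 4 h in siSTAT3 cells (log2 fold change, TAM over EtOH) against the geometric mean of both group means of the signal (units, log axis) for 19775 genes. Orange points are the 105 genes that rose and blue points the 57 that fell; the dotted line marks 100 units, left of which the spread of all genes widens, and 4 of the rises and 7 of the falls had under 100 units in both groups.

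Some genes of the NF-κB pathway rose. TNFAIP3, which encodes the ubiquitin-editing enzyme A20 that damps NF-κB signaling, measured 8676, 9147 and 9110.1 units with TAM and 3671, 3723 and 4155 units with EtOH in siSTAT3 cells, a 2.34-fold rise (log2 fold change 1.22, SE 0.10, adjusted p = 2.07e-05). MAP3K8, the kinase TPL2 that NF-κB1 p105 binds and that feeds into ERK, measured 409, 494 and 548 units against 210.0, 218 and 200.2 units (2.29-fold, log2 fold change 1.20, SE 0.14, adjusted p = 0.000484). NFKB1, which encodes p105 and its product p50, measured 1472, 1503 and 1218 units against 974, 948 and 892 units (log2 fold change 0.57, SE 0.11, adjusted p = 0.0295). In each of these genes every TAM array lay above every EtOH array, as in all 105 rises. In either direction 16.2% of all genes did not overlap. Of 13 measured NF-κB subunits and inhibitors TNFAIP3 and NFKB1 were called and none fell, where 0.531% of all genes rose and 0.288% fell. The list's median of 0.47, with 12 of 13 members higher, stands beside -0.017 over all genes. NFKB2 measured 199, 311 and 254 units with TAM and 155, 124 and 111 units with EtOH, and its log2 difference of 0.96 had an adjusted p of 0.0501, just above the limit. NFKBIB had 0.79 (adjusted p = 0.136) and NFKBIA, an inhibitor that NF-κB itself induces, 0.41 (adjusted p = 0.11). The ubiquitin ligase PELI1, the kinase RIPK2 and the caspase-8 regulator CFLAR, all outside the list, were named after their values were seen and rose by 0.58 (adjusted p = 0.00627), 0.42 (adjusted p = 0.0448) and 0.41 (adjusted p = 0.0114) on the log2 scale. Leaving out arrays ended the call for NFKB1 (5 of 6), RIPK2 (6) and CFLAR (1).

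The bases upstream of some of these genes are shown because they hold letters that match the NF-κB or STAT consensus close to the start of the gene. Sequences are from RefSeq (GRCh38.p14), 5′ to 3′ on the strand of the gene, with the matched letters in capitals, and positions count back from the start of the gene.
TNFAIP3, plus strand, chr6:137867177-137867228, NF-κB letters from -67 and from -55: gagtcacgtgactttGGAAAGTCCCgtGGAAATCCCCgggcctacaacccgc
MAP3K8, plus strand, chr10:30433977-30434016, NF-κB letters from -29: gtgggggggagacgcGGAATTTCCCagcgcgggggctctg
NFKB1, plus strand, chr4:102501295-102501334, NF-κB letters from -49: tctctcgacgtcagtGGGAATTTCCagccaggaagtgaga
IRF1, minus strand, chr5:132490799-132490912, STAT letters from -124 and NF-κB letters from -50: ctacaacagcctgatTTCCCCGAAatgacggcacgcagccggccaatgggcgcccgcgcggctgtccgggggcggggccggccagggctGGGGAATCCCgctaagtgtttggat
ICAM1, plus strand, chr19:10271030-10271068, STAT letters from -75: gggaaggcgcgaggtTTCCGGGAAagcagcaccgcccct
CFB, plus strand, chr6:31945988-31946026, STAT letters from -92: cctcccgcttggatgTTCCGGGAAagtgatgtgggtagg

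Letters were searched on both strands in the 250 bases before each start, with overlapping matches of different motifs allowed: the 10-letter κB consensus, TGANTCA for AP-1, TTCNNNGAA for STAT factors, and the 10-letter CArG box of the serum response element. Only genes with a matched promoter were counted, which were 15384 of the 19775 genes on the array. The κB letters occurred upstream of 11 of 87 such genes that rose (12.6%), of 1 of 43 that fell (2.33%), and of 5.79% of the 15384. The STAT letters occurred in 8 of the 87 (9.20%), 1 of the 43 and 6.03% of all, the AP-1 letters in 5 (5.75%), 2 and 5.03%, and the CArG box in 1 (1.15%), 1 and 1.14%. The other rises with κB letters were CFLAR, ELF3, IFIH1, ITGA1, PTGER4, TM4SF1 and TNFAIP1. A match is a string of letters and no evidence of binding, and these genes were picked for showing because they matched.

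NF-κB target genes and inflammatory mediators rose with TAM in siSTAT3 cells in part of their members. Of 23 measured NF-κB target genes 5 rose and none fell, against 0.531% and 0.288% of all genes. The list median was 0.44, with 22 of 23 members higher. In limma 17 had an unadjusted p under 0.05, against 1989 of all 19775 genes in either direction. PTGS2, the inducible cyclooxygenase that starts prostaglandin synthesis, measured 3047, 2727 and 3249 units with TAM and 976, 1122 and 1444 units with EtOH (2.58-fold, log2 fold change 1.36, SE 0.18, adjusted p = 0.00094). IRF1, a transcription factor of the interferon response, measured 693, 797 and 696 units against 337, 375 and 371 units (2.01-fold, log2 fold change 1.01, SE 0.12, adjusted p = 0.000357). Neither gene overlapped between the treatments, which held for all 105 rises and, in either direction, for 16.2% of all genes. ICAM1, a leukocyte adhesion receptor, measured 975, 1041 and 869 units against 452, 451 and 578 units (log2 fold change 0.97, SE 0.18, adjusted p = 0.0161), and IL1A, an alarm cytokine of epithelia, 7962, 8283 and 8099 units against 4403, 4813 and 4992 units (log2 fold change 0.78, SE 0.081, adjusted p = 0.000265). TNFAIP3 is the other called member, and the call of ICAM1 was lost in 4 of the 6 fits that left out an array. PTGER4, a receptor for prostaglandin E2, was also 2.01-fold higher, with 2856, 2716 and 3003 units against 1345, 1448 and 1467 units (log2 fold change 1.01, SE 0.12, adjusted p = 0.000572). In the list of 15 prostaglandin and aldo-keto genes PTGS2 and PTGER4 were the called members, and the median was -0.017. PTGS1, the constitutive cyclooxygenase, had -0.51 (adjusted p = 0.498).

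Among 31 measured cytokines and chemokines 4 rose and none fell, with a median of 0.42, 25 members higher and 18 at an unadjusted p under 0.05. Of all 19775 genes 0.531% rose, 0.288% fell and 1989 had such a p in either direction. LIF, which signals through gp130 as interleukin 6 does, measured 3462, 4157 and 4235 units with TAM and 2101, 2307 and 2248 units with EtOH (log2 fold change 0.83, SE 0.15, adjusted p = 0.0177). The LIF call was lost in 5 of the 6 fits that left out an array, as were those of IL20 and TNFSF10. IL1A is given above. The other called members were dim: IL20 measured 49.4, 69.5 and 48.5 units against 17.6, 3.32 and 2.3 units (log2 fold change 3.43, SE 0.71, adjusted p = 0.0369), and TNFSF10, the death ligand TRAIL, 69.8, 60.5 and 47.9 units against 28.5, 31.8 and 34.7 units (log2 fold change 0.90, SE 0.18, adjusted p = 0.031). The large fold of IL20 thus rests on EtOH signals of at most 17.6 units. The largest difference among the brighter members was that of IL24, a cytokine related to interleukin 10, with 1296, 1297 and 1233 units against 314, 329 and 371 units. Its TAM arrays lay 3.78-fold higher and far outside the EtOH arrays, but the log2 fold change of 1.92 had an SE of 0.56 and an adjusted p of 0.198, a spread that is pooled over all groups and that includes 391, 58.9 and 116 units on the EtOH arrays at 24 h. IL6 measured 303, 459.7 and 406 units with TAM and 179, 180.0 and 191 units with EtOH (log2 1.07, adjusted p = 0.11), and CXCL10 488, 552 and 597 units against 210.3, 284 and 297 units (log2 1.06, adjusted p = 0.503). Neither passed the test, although no TAM array fell within the EtOH range, as held in either direction for 16.2% of all genes.

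Of 26 measured feedback and target genes of STAT3, 2 were called, and most members of every other list were not called either. SOCS3, which blocks the JAK kinases at gp130 receptors and is a classical STAT3 target, measured 403, 395 and 299 units with TAM and 119, 119 and 116 units with EtOH, a 3.07-fold rise (log2 fold change 1.62, SE 0.34, adjusted p = 0.0414). The call was lost when any of the 6 arrays was left out, with an adjusted p of up to 0.161. In siSCM cells the same probe set measured 4565, 4524 and 4739.9 units with TAM and 425, 482 and 459.9 units with EtOH, and its log2 TAM effect was 3.34. The siSTAT3 arrays with TAM thus lay below the siSCM arrays with EtOH. The difference between the TAM effects, siSTAT3 minus siSCM, was -1.72 with an SE of 0.48 and did not pass the test (adjusted p = 0.228). OSMR, the receptor chain for oncostatin M, rose by 0.32 on the log2 scale (adjusted p = 0.031), with 5091, 4904 and 4802 units against 3929, 3969 and 3950.3 units, and its call too was lost without any of the 6 arrays. Among the 26 STAT3 target and feedback genes these 2 rose, none fell, and the median was 0.091. Of all genes 0.531% rose and 0.288% fell in siSTAT3 cells. In siSCM cells, where 1.67% of all genes rose and 1.58% fell, 7 of the 26 rose and 1 fell. The difference between the TAM effects was called below 0 in 3 of them (0.329% of all genes) and above 0 in none. The list of matrix, proteases and adhesion had the same counts for this difference. Rises in siSCM cells also outnumbered those in siSTAT3 cells among NF-κB target genes (9 against 5) and cytokines and chemokines (11 against 4). The ERK feedback and the prostaglandin and aldo-keto lists went the other way (1 against 2 each). CISH had a log2 fold change of 0.52 (adjusted p = 0.134) and BCL6, a transcriptional repressor, -0.33 (adjusted p = 0.699).

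**Figure D2:**
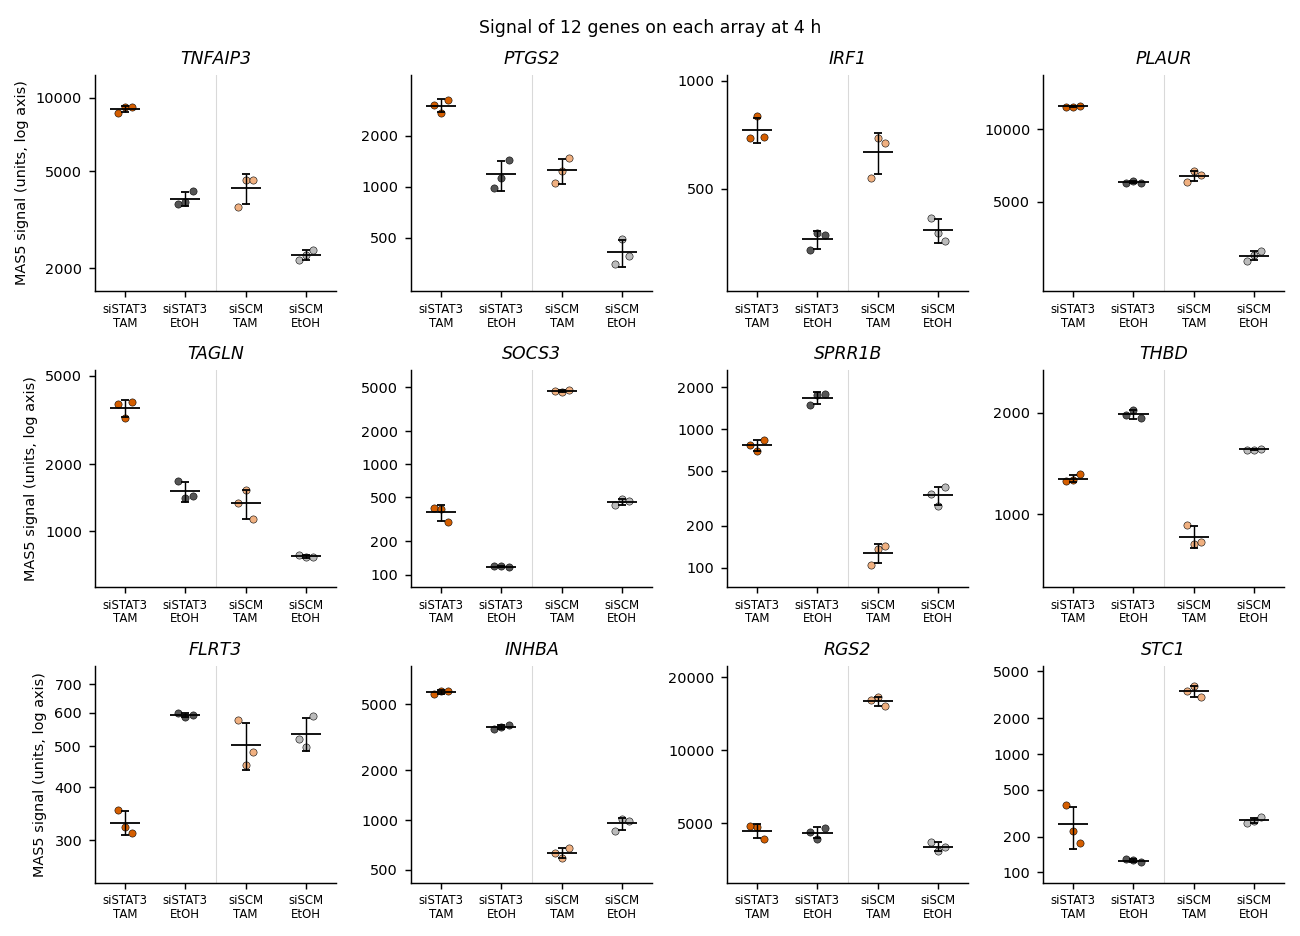
MAS5 signal (units, log axis) of 12 genes on each of the 12 arrays at 4 h, with siSTAT3 cells left and siSCM cells right and TAM before EtOH. Lines are group means and bars SD of 3 arrays; TNFAIP3, PTGS2, IRF1, PLAUR and TAGLN separate TAM from EtOH in both kinds of cells, SOCS3 does so at a lower level in siSTAT3 cells, STC1 does so in both with a smaller gap in siSTAT3 cells, and RGS2 overlaps in siSTAT3 cells only.

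Interferon-stimulated genes rose in 4 of 19 measured members, with a median of 0.25 and none that fell, against 0.531% and 0.288% of all genes. IRF9, the DNA-binding subunit of the interferon-activated factor ISGF3, measured 954, 1003 and 1079 units with TAM and 523, 498 and 615 units with EtOH (log2 fold change 0.90, SE 0.11, adjusted p = 0.000846). IFIT2, an RNA-binding antiviral protein, measured 289, 329 and 273 units against 161, 144 and 187 units (log2 fold change 0.86, SE 0.11, adjusted p = 0.000863), and GBP1, a GTPase that attacks intracellular pathogens, 5644, 5575 and 6279 units against 2698, 3534 and 3575 units (log2 fold change 0.85, SE 0.14, adjusted p = 0.0093). IFIH1, the RNA sensor MDA5, was the other one (log2 fold change 0.55, SE 0.10, adjusted p = 0.0153). Their arrays did not overlap, which held for all 105 rises. Leaving out arrays ended the call for IFIH1 (4 of 6) and GBP1 (1). Outside the list and named after its values were seen, CD274, which encodes the immune checkpoint ligand PD-L1, rose by 0.81 (adjusted p = 0.0172, lost in 4 of 6 such fits) and CFB, the complement factor B of the alternative pathway, measured 275, 309 and 300.1 units against 141, 135 and 139 units (2.13-fold, log2 fold change 1.09, SE 0.14, adjusted p = 0.000846).

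The immediate early genes of growth factor signaling were not called. Of 21 measured, 0 passed in limma, 7 were higher at an unadjusted p under 0.05 and none lower, and the median was 0.19. Of all 19775 genes 1989 had such a p in either direction. In siSCM cells 5 of the immediate early genes rose and 2 fell (1.67% and 1.58% of all genes). The difference between the TAM effects was called in 1 gene above 0 and in 1 below (0.192% and 0.329% of all genes). SRF, the serum response factor, measured 1212, 1265 and 1193 units with TAM and 741, 758 and 838 units with EtOH (log2 0.65, adjusted p = 0.0803), NR4A1 had 0.67 (adjusted p = 0.663) and IER3 0.41 (adjusted p = 0.06). Of 11 measured AP-1 family genes 2 rose (0.531% of all genes), and all 11 had a value above 0 with a median of 0.25. In siSCM cells 4 of the 11 rose, with a median of 0.58. The difference between the TAM effects was called below 0 in 1 of them and above 0 in none, with a median of 0.0016. ATF3, a stress-induced factor of the family, measured 447, 534 and 414 units against 233, 209 and 225 units (2.08-fold, log2 fold change 1.06, SE 0.11, adjusted p = 0.000289), MAFF, a small MAF protein, 6320.3, 6675 and 6593 units against 4359, 4723 and 4679 units (log2 fold change 0.51, SE 0.082, adjusted p = 0.0071), and FOSL1 had 0.58 (adjusted p = 0.13). ATF3 was also the called member among 15 endoplasmic reticulum stress and ATF4 genes (median 0.077), where ATF4 had 0.28 and DDIT3 -0.31 (adjusted p = 0.334 and 0.717).

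The ERK feedback list moved in both directions. ERRFI1, which encodes the EGF receptor inhibitor MIG6, measured 6435, 5506 and 6588 units with TAM and 3593, 3828 and 3778 units with EtOH (1.65-fold, log2 fold change 0.72, SE 0.09, adjusted p = 0.000813). DUSP5, a nuclear phosphatase of ERK, measured 1389, 1308 and 1318 units against 837, 819 and 945 units (log2 fold change 0.63, SE 0.083, adjusted p = 0.00123). DUSP10, a phosphatase of the stress kinases JNK and p38, fell to 388, 419 and 472 units with TAM, against 581, 589 and 636 units with EtOH (log2 fold change -0.50, SE 0.10, adjusted p = 0.0308), a call lost in 5 of the 6 fits that left out an array. Of 17 measured members 2 rose and 1 fell, against 0.531% and 0.288% of all genes, and the median was -0.081. Among 10 EGF family ligands and receptors 0 were called (limma, 1 at an unadjusted p under 0.05). HBEGF, a ligand shed from the cell surface, measured 3655, 3863 and 3686 units against 1774, 2271 and 2719.6 units without overlap (log2 0.75, adjusted p = 0.065), EREG had 0.35 (adjusted p = 0.58) and EGFR -0.16 (adjusted p = 0.583).

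A few genes of adhesion, the cytoskeleton and the matrix were called. PLAUR, the urokinase receptor, measured 12410.0, 12455 and 12583 units with TAM and 5992, 6102 and 5997 units with EtOH (2.07-fold, log2 fold change 1.05, SE 0.15, adjusted p = 0.00203), and its arrays lay close together within each treatment. TAGLN, the actin-binding protein transgelin, measured 3750.0, 3221 and 3806 units against 1685, 1409.8 and 1436 units (2.38-fold, log2 fold change 1.25, SE 0.14, adjusted p = 0.000313), and HAS3, a hyaluronan synthase, 2157, 2329 and 1829.9 units against 962, 916 and 934 units (2.24-fold, log2 fold change 1.16, SE 0.12, adjusted p = 0.000265). PLAUR was the called member among 26 genes of matrix, proteases and adhesion (median 0.16, 9 higher and 1 lower at an unadjusted p under 0.05). In that list STC1, a secreted glycoprotein, had 0.97 (adjusted p = 0.14) and ADAMTS9 0.92 (adjusted p = 0.0713). In siSCM cells 5 of the 26 rose and 1 fell (1.67% and 1.58% of all genes). The difference between the TAM effects was called below 0 in 3 (0.329% of all genes) and above 0 in none. Of 17 SRF and YAP target genes 3 rose and none fell, with a median of 0.24 and 15 members higher. Of all genes 0.531% rose and 0.288% fell. These were TAGLN, the Hippo kinase LATS2 with 3003, 3219 and 2930.4 units against 1663, 1987 and 1857 units (log2 fold change 0.74, SE 0.10, adjusted p = 0.00238), and EDN1, the vasoconstrictor peptide endothelin 1 (log2 fold change 0.44, SE 0.086, adjusted p = 0.0253), whose call was lost in 5 of the 6 fits that left out an array. MYL9 had 0.62 (adjusted p = 0.765).

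Secreted signals of the TGF-β family and junction genes held few calls, where 0.531% of all genes rose and 0.288% fell. Of 22 TGF-β, activin and BMP genes, INHBA, the subunit of activin A, measured 5789.7, 6037 and 6050.0 units with TAM and 3537, 3645 and 3779 units with EtOH (1.63-fold, log2 fold change 0.71, SE 0.091, adjusted p = 0.00094), and TGFB2 rose by 0.45 (adjusted p = 0.0316), while the list median was 0.043. NOG and ID2, an inhibitor of BMPs and a target of them, had -0.66 and -0.51 (adjusted p = 0.515 and 0.501). Of 23 epithelial junction and fate genes CLDN1, a tight junction claudin, rose, with 14821, 15711 and 15896 units against 9197, 10693 and 10145 units (log2 fold change 0.63, SE 0.12, adjusted p = 0.0241). CDH1, which encodes E-cadherin, and OVOL2 had 0.24 and -0.32 (adjusted p = 0.389 and 0.539), and the median was 0.013. Of 16 mesenchymal genes TWIST1 fell to 614, 604 and 639 units with TAM, against 799, 799.8 and 913 units with EtOH (log2 fold change -0.43, SE 0.093, adjusted p = 0.045), and SNAI2 and TWIST2 had -0.35 and -0.23 (adjusted p = 0.0554 and 0.568). The call of CLDN1 was lost in 5 of the 6 fits that left out an array, and those of TGFB2 and TWIST1 in all 6.

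Lists for hormones, damage and metabolism held at most 2 called members each, where 0.531% of all genes rose and 0.288% fell. Among 17 glucocorticoid-responsive genes ERRFI1 was called (median 0.034), and DUSP1 had 0.34 (adjusted p = 0.177). Of 13 estrogen receptor target genes 0 were called by limma, with 0 at an unadjusted p under 0.05 and a median of 0.091, and MYB, RARA and EGR3 had 0.44, -0.29 and -0.23. Of 15 p53 target genes PMAIP1, the pro-death protein NOXA, rose by 0.47 (adjusted p = 0.0154, lost in 3 of the 6 fits that left out an array), and GDF15 and BAX had 0.36 and 0.28. Of 24 cell cycle and DNA replication genes CCNA2, cyclin A2, fell to 3147, 3245 and 3279.8 units with TAM, against 3932, 3997 and 4124 units with EtOH (log2 fold change -0.32, SE 0.066, adjusted p = 0.0366), in a list with a median of -0.13. That call was lost with each array left out, and E2F1 and CCNE2 had -0.30 and -0.20. INSIG1, which retains the sterol sensor in the endoplasmic reticulum, measured 4833, 4806 and 4449 units against 2662, 2653 and 2549 units (1.79-fold, log2 fold change 0.84, SE 0.089, adjusted p = 0.000265). HMGCS1 of the mevalonate pathway rose by 0.46 (adjusted p = 0.0253, lost in 5 of the 6 fits) among 18 glucose and lipid metabolism genes (median 0.026), and TXNIP had 0.40 (adjusted p = 0.0501).

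Some of the largest rises lay outside the lists. PPP1R3B, which brings protein phosphatase 1 to glycogen, measured 1915, 1791 and 1709 units with TAM and 627, 655 and 694 units with EtOH (2.74-fold, log2 fold change 1.46, SE 0.11, adjusted p = 8.74e-06). IGFL1, a small secreted protein, measured 3231, 3395 and 2988 units against 1192, 1149.8 and 1221 units (2.70-fold, log2 fold change 1.43, SE 0.16, adjusted p = 0.000289), and PNRC1, a coregulator of nuclear receptors, 2477, 2189 and 2430.0 units against 1058, 1131 and 1103 units (2.15-fold, log2 fold change 1.11, SE 0.075, adjusted p = 4.36e-06). All 3 calls were kept in each of the 6 fits that left out an array. ELF3, an epithelial ETS factor, measured 239, 288 and 320.0 units against 157, 123 and 125 units (2.09-fold, log2 fold change 1.06, SE 0.23, adjusted p = 0.048), a call lost in each of those fits, with an adjusted p of up to 0.169.

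**Figure D3:**
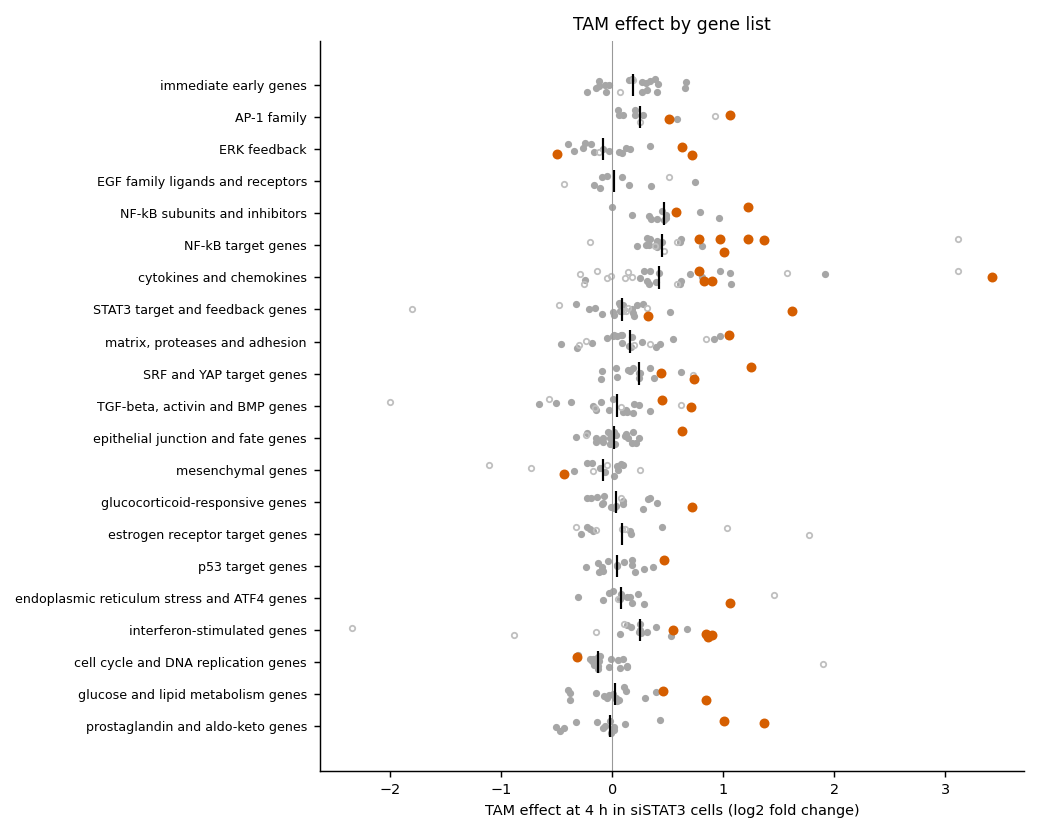
TAM effect at 4 h in siSTAT3 cells (log2 fold change) of each measured member of 21 gene lists, with called genes in orange, other genes in gray and open circles for genes under 100 units in both groups. Black bars are list medians, which are highest for the NF-κB subunits and inhibitors (0.47), the NF-κB target genes (0.44) and the cytokines and chemokines (0.42).

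The genes that fell had mostly small effects and varied functions. SPRR1B, a protein of the cornified envelope of squamous cells, fell to 767, 697 and 832 units with TAM, against 1493, 1758 and 1797 units with EtOH (2.20-fold lower, log2 fold change -1.14, SE 0.18, adjusted p = 0.00549). MBLAC2 fell to 843, 1086 and 865 units, against 1894, 1879 and 1767 units (2.00-fold lower, SE 0.12 on the log2 scale, adjusted p = 0.000796). Cell surface proteins followed: FLRT3, a leucine-rich adhesion protein, measured 354, 323 and 312 units with TAM and 600.2, 585 and 593 units with EtOH (log2 fold change -0.85, SE 0.10, adjusted p = 0.000695), and THBD, the anticoagulant receptor thrombomodulin, 1251, 1263 and 1314 units against 1969, 2048 and 1935 units (log2 fold change -0.64, SE 0.076, adjusted p = 0.000572). For these genes every TAM array lay below every EtOH array, a condition for naming them that 16.2% of all genes met in either direction. No single array decided the call. SCNN1G, a subunit of the epithelial sodium channel, measured 884, 1154 and 783 units against 1539, 1617 and 1682 units (log2 fold change -0.80, SE 0.14, adjusted p = 0.0118), and FAT2, a giant cadherin of epithelia, 227, 244 and 261 units against 383, 423 and 459 units (log2 fold change -0.79, SE 0.16, adjusted p = 0.0316).

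Several transcription factors fell. FOXQ1 and FOXP4, both forkhead factors, measured 250.1, 309 and 270.3 units with TAM against 514, 399 and 453 units with EtOH (adjusted p = 0.0253), and 148, 105 and 113 units against 223, 215 and 213 units (adjusted p = 0.0456). BCL11B, a zinc finger factor, measured 70.4, 54.4 and 65.7 units against 81.5, 149 and 126 units (adjusted p = 0.0228), around the level at which the spread of all genes widens. ZBED2 fell more steadily, with 244, 259 and 255 units against 415, 379 and 395 units (log2 fold change -0.65, SE 0.10, adjusted p = 0.00486). PNMA8A, CRACDL, PRR3, NLRX1 and FAM117B fell by 0.79, 0.70, 0.68, 0.65 and 0.63 on the log2 scale, with adjusted p-values of 0.00708, 0.0116, 0.00833, 0.0118 and 0.0396. Leaving out arrays ended the call for FAT2 (6 of 6), FOXP4 and FAM117B (5 each), BCL11B and FOXQ1 (4 each), SCNN1G and NLRX1 (3 each), CRACDL (2) and MEFV (2). The largest falls on the log2 scale belonged to genes under 100 units such as MEFV, with 5.05, 2.87 and 16.4 units against 60.6, 32.9 and 51.9 units (log2 fold change -2.92, SE 0.49, adjusted p = 0.00973), where the signals of the 3 TAM arrays themselves range from 2.87 to 16.4 units.

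With STAT3 present, more genes were called after the same 4 h of TAM. In siSCM cells 331 genes rose (1.67%) and 313 fell (1.58%). The median log2 TAM effect over all genes was -0.061 in siSCM cells and -0.017 in siSTAT3 cells. Among all 23 arrays siSCM EtOH replicate 2 at 4 h had the highest median signal (85.3 units). Its ratios of 3′ to 5′ signal were the highest too, at 1.44 for ACTB and 1.03 for GAPDH. Of the 105 rises in siSTAT3 cells 60 also rose in siSCM cells, which is 57.1% of the siSTAT3 list and 18.1% of the siSCM list, and 94 had the same sign. Of the 57 falls 30 also fell, or 52.6% and 9.58% of the lists, and 53 had the same sign. For the 331 siSCM rises the median log2 TAM effect was 0.24 in siSTAT3 cells and 0.69 in siSCM cells, and for the 313 siSCM falls -0.18 and -0.58. These siSCM genes were picked on the siSCM arrays, which favors larger values there. TNFAIP3, MAP3K8 and PLAUR had effects of 1.22, 1.20 and 1.05 in siSTAT3 cells and 0.90, 1.16 and 1.10 in siSCM cells.

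Some of these genes also stood on different levels in the 2 kinds of cells. With EtOH, TNFAIP3 measured 3671, 3723 and 4155 units in siSTAT3 cells and 2164, 2263 and 2373 units in siSCM cells (log2 difference 0.76, adjusted p = 0.000229), and with TAM it measured 8676, 9147 and 9110.1 units and 3572, 4618 and 4604 units. PTGS2 with EtOH measured 976, 1122 and 1444 units in siSTAT3 cells and at most 493 units in siSCM cells (log2 difference 1.52, adjusted p = 7.28e-05), so that the EtOH arrays of siSTAT3 cells overlapped the siSCM arrays with TAM (1054, 1229 and 1470.0 units). PLAUR and TAGLN had log2 differences of 1.02 and 0.96 with EtOH (adjusted p = 0.000559 and 0.000606). IRF1 had -0.082 (adjusted p = 0.836), with its EtOH arrays overlapping between the siRNAs. SPRR1B, which fell with TAM in both kinds of cells, was higher in siSTAT3 cells with EtOH by 2.34 (adjusted p = 9.85e-07), and SOCS3 was lower (-1.95, adjusted p = 0.00341). The differences between the TAM effects of TNFAIP3, PTGS2, PLAUR, TAGLN and SPRR1B, siSTAT3 minus siSCM, were 0.32, -0.25, -0.055, 0.47 and 0.25, none of them called (adjusted p = 0.598, 0.9, 0.981, 0.565 and 0.898).

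The difference between the TAM effects was tested directly as siSTAT3 minus siSCM, in the same model. It was above 0 in 38 genes (0.192%) and below 0 in 65 (0.329%). Among genes that rose in siSTAT3 cells 9 of 105 were called for it, 2 with a smaller effect than in siSCM cells and 7 with a larger one. These 105 genes were picked on the siSTAT3 arrays, which favors larger effects there. The smaller ones were PPP1R3B, with 1.46 in siSTAT3 cells and 2.20 in siSCM cells (difference -0.75, SE 0.15, adjusted p = 0.0434), and TM4SF1, a tetraspanin-like surface protein, with 0.63 and 1.53 (difference -0.90, SE 0.16, adjusted p = 0.0152). Those with a larger effect were INHBA, ERRFI1, SOX4, SLC46A1, GADD45A, IL1A and ZNF281, with differences of 1.30, 0.88, 0.80, 0.72, 0.71, 0.59 and 0.50 and adjusted p-values of 9.87e-05 to 0.046. SOX4, a transcription factor of progenitor cells, measured 8726, 8466 and 8466 units with TAM and 6251, 6071 and 6348 units with EtOH in siSTAT3 cells, against 2861, 2610.0 and 2763 units and 3601, 3374 and 3421 units in siSCM cells. It rose in siSTAT3 cells and fell in siSCM cells (log2 fold change -0.34, SE 0.072, adjusted p = 0.0163), as INHBA did (log2 fold change -0.59, SE 0.091, adjusted p = 0.00104). IL1A had a TAM effect of 0.78 in siSTAT3 cells and 0.18 in siSCM cells (adjusted p = 0.357).

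Several of these genes already differed between siSTAT3 and siSCM cells with EtOH, and that comparison shares its EtOH arrays with the TAM effects. INHBA with EtOH measured 3537, 3645 and 3779 units in siSTAT3 cells and 861, 1017 and 985 units in siSCM cells (log2 1.94, adjusted p = 6.83e-09), and SOX4, GADD45A and SLC46A1 had differences of 0.84, 0.98 and 0.75. For ERRFI1, IL1A and ZNF281 the EtOH differences were -0.20, 0.072 and 0.20 (adjusted p = 0.315, 0.781 and 0.177). Among the falls FLRT3 had TAM effects of -0.85 in siSTAT3 cells and -0.091 in siSCM cells (difference -0.76, SE 0.15, adjusted p = 0.0303), and ZBED2 -0.65 and -1.45 (difference 0.80, SE 0.14, adjusted p = 0.0146). SLC43A2, a dim amino acid transporter, was the other called fall (40.4, 41.8 and 49.2 units with TAM against 76.6, 82.6 and 94.5 units with EtOH, difference -1.78, adjusted p = 0.00425).

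**Figure D4:**
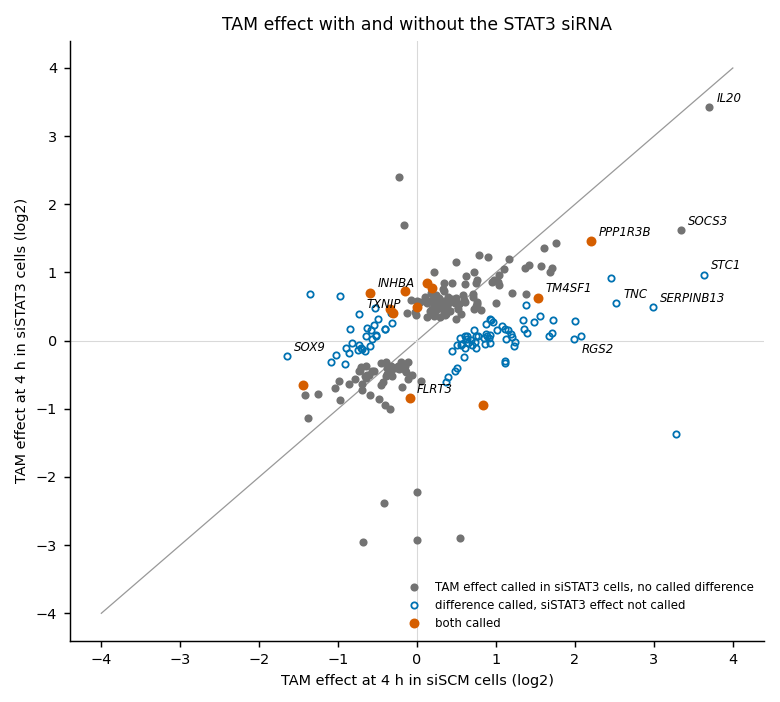
TAM effect at 4 h (log2 fold change, TAM over EtOH) in siSTAT3 cells on the vertical axis against that in siSCM cells on the horizontal axis, for genes called in siSTAT3 cells or for the difference. The line marks equal effects; blue open circles near the horizontal axis, such as RGS2 and TNC, are genes whose difference was called but not their effect in siSTAT3 cells.

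Genes that rose with TAM in siSCM cells but were not called in siSTAT3 cells stood at the negative end of this difference, beside SLC43A2. RGS2, a brake on G protein signaling, measured 4846, 4796 and 4296 units with TAM and 4586, 4318 and 4789 units with EtOH in siSTAT3 cells, and the groups overlapped, against 16065, 16482 and 15195 units and 4185, 3834 and 3986 units in siSCM cells. STC1 measured 372, 225 and 177 units against 129, 126 and 122 units, without overlap, and 3424, 3755 and 3043 units against 262, 269.8 and 292 units in siSCM cells. SERPINA1, the antitrypsin of the acute phase, had TAM effects of 0.069 in siSTAT3 cells and 2.07 in siSCM cells, SERPINB1 0.30 and 2.00, and SERPINB13 0.49 and 2.99. The effects of TNC, the matrix protein tenascin C, were 0.55 and 2.52, and those of TENT5C, a poly(A) polymerase, 0.061 and 1.68. None of them was called in siSTAT3 cells, with adjusted p-values from 0.127 for TNC to 0.974 for RGS2.

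At the positive end stood genes whose TAM effect was below 0 in siSCM cells and nearer to 0 or above it in siSTAT3 cells. SOX9, a transcription factor of epithelial progenitors, measured 1729, 1498 and 1736 units with TAM and 1941, 2004 and 1859 units with EtOH in siSTAT3 cells, against 265, 361 and 346 units and 1022, 962 and 1045 units in siSCM cells. The TAM arrays lay below the EtOH arrays in both, with log2 effects of -0.23 (adjusted p = 0.762) in siSTAT3 cells and -1.65 (adjusted p = 1.38e-05) in siSCM cells. TXNIP, which limits glucose uptake, measured 3363, 3473 and 3339.7 units against 2406, 2647 and 2678 units, without overlap and with an adjusted p of 0.0501, where siSCM cells had 927, 804 and 769 units against 1446, 1279 and 1438 units. The RNA-binding protein CPEB2 had effects of 0.17 in siSTAT3 cells and -0.85 in siSCM cells, CHSY3, a chondroitin synthase, 0.18 and -0.64, KLF12 0.31 and -0.49, and ABTB2 0.47 and -0.54. The siSCM effect of ABTB2 was not called (adjusted p = 0.0672). The tests of these differences are given in the closing section.

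Many of the early rises were also measured as rises at 24 h. In siSTAT3 cells 395 genes rose (2.00%) and 148 fell (0.748%) after 24 h of TAM. Of the 105 early rises 58 also rose at 24 h, or 55.2% and 14.7% of the lists, and of the 57 early falls 7 also fell, or 12.3% and 4.73%. The difference between these shares was not tested. In all, 38 of the rises were called in siSTAT3 cells at 4 h, in siSCM cells at 4 h and in siSTAT3 cells at 24 h. The 543 calls at 24 h became 338, 326 and 319 without EtOH replicates 1, 2 and 3 of that time and 202 without TAM replicate 3, where the 1 TAM array left is assumed to vary like the other groups. IGFL1 measured 3849.8 and 4858 units with TAM and 1027, 1157 and 1044 units with EtOH at 24 h (log2 2.01), and TNFAIP3, PLAUR, HAS3 and TAGLN had 24 h effects of 1.81, 1.79, 1.59 and 1.50. PTGS2 was at 1.49 and IRF1 at 0.93 (adjusted p = 0.000412 and 0.000651). The values with TAM at 24 h come from 2 arrays.

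The change of the TAM effect with time, 24 h minus 4 h in siSTAT3 cells, was called above 0 in 83 genes (0.420%) and below 0 in 23 (0.116%). This comparison was added after the data had been seen, and its 106 calls became 55 without TAM replicate 3, which again leaves 1 array, and 68 without EtOH replicate 2 at 24 h, and 70 without EtOH replicate 3 at 4 h. Of the 105 early rises 10 were called, 4 with a larger and 6 with a smaller or turned effect at 24 h. The early rises and falls were picked on the 4 h arrays that this difference reuses, which favors smaller effects at 24 h. INHBA had 0.71 at 4 h and 2.98 at 24 h, with 3475 and 4188 units with TAM and 454, 532 and 471 units with EtOH at 24 h (difference 2.27, adjusted p = 2.65e-07). BIK, a pro-death BCL2 family protein, had 0.56 and 2.39 (difference 1.83, adjusted p = 5.83e-05), and PNRC1 1.11 and 0.11 (difference -0.99, adjusted p = 0.000459). DSC3, a desmosomal cadherin, turned, with 0.50 at 4 h and -0.41 at 24 h (difference -0.91, adjusted p = 0.00109). Of the 57 early falls 8 were called, all 8 with a smaller or turned effect, among them FLRT3, THBD, ZBED2, FOXQ1 and CRACDL. FLRT3 measured 985 and 954 units with TAM against 837, 836 and 755 units with EtOH at 24 h, and ELFN2 went against its early fall, with 0.76 at 24 h (adjusted p = 0.00626).

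**Figure D5:**
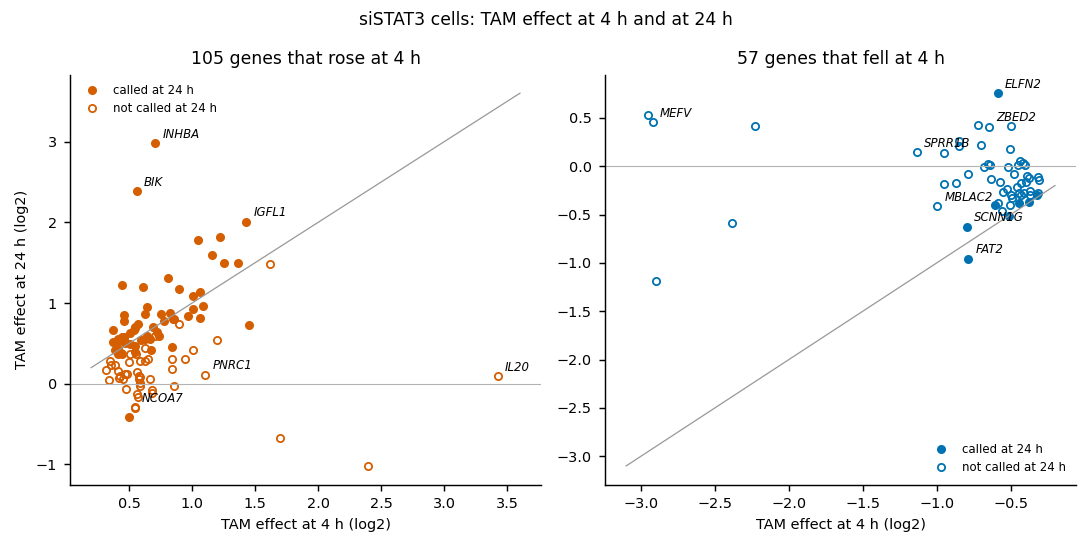
TAM effect (log2 fold change, TAM over EtOH) in siSTAT3 cells at 24 h against that at 4 h, for the 105 genes that rose at 4 h (left) and the 57 that fell (right). Filled points are called at 24 h and lines mark equal effects; 58 of the rises rose again, and 7 of the falls fell again.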

How the data were processed

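Gene expression was measured on Affymetrix U133 Plus 2.0 arrays. The deposited values are intensities (MAS5 signals in linear units), which the authors computed and scaled with MAS5, whose version is not given in the sources used here. The 2% trimmed mean of every deposited column is 500 units, and all 23 columns were used. MAS5 subtracts mismatch probes, which makes low signals noisy. Here signals were put on the log2 scale with nothing added and fitted with limma 3.58.1 (R 4.3.3) as a model of group means, with arrays grouped by title, no covariate and Benjamini-Hochberg adjustment over 54675 probe sets. Tables were made with Python 3.11.15, pandas 2.3.3 and numpy 2.4.6. Of the probe sets 41097 had 1 gene in the platform annotation, 1801 several and 11777 none, and the 19775 genes were each given by the single-gene probe set of highest mean log2 signal. A gene was called at an adjusted p under 0.05.

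Genes were named by rule: STAT3, the 15 largest called rises and falls, the 8 called genes at each end of the siSTAT3 minus siSCM difference, and the 3 largest values of each list, all with at least 100 units and, for rises and falls, no overlap of arrays. Other named genes (NFKB1, ICAM1, IL1A, LIF, OSMR, IFIH1 and further called genes) were chosen after their values were seen. Members, lists, motifs and the rule were chosen with earlier results of these data known. The fit was tested on simulated data. Alternatives were the arrays that share the spread, the prior variance, a filter on low signals, 16 units added, other scalings, the limits of the methods (p under 1e-04 and a log2 change over 0.5), any probe set of a gene, a replicate block and leaving out each array. Promoters were matched by symbol to RefSeq for 87 of the 105 genes that rose and 43 of the 57 that fell.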

Additional observations from a re-analysis of the deposited data

Results flagged for a closer look

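The TAM effect at 4 h differed between siSTAT3 and siSCM cells in the following named genes, by the test of the difference itself in the limma model, on the log2 scale and as siSTAT3 minus siSCM. Below 0 were STC1 at -2.66 (adjusted p = 0.00191), SERPINB13 at -2.50 (adjusted p = 0.000131), SERPINA1 at -2.01 (adjusted p = 7.4e-05), TNC at -1.98 (adjusted p = 0.000131), RGS2 at -1.97 (adjusted p = 2.26e-06), SLC43A2 at -1.78 (adjusted p = 0.00425), SERPINB1 at -1.70 (adjusted p = 3.1e-06) and TENT5C at -1.61 (adjusted p = 0.0268). FLRT3 at -0.76 (adjusted p = 0.0303) and PPP1R3B at -0.75 (adjusted p = 0.0434) were closer to 0.

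Above 0 were SOX9 at 1.42 (adjusted p = 0.00866), INHBA at 1.30 (adjusted p = 9.87e-05), TXNIP at 1.14 (adjusted p = 0.00022), CPEB2 at 1.02 (adjusted p = 0.00111), ABTB2 at 1.01 (adjusted p = 0.0402), ERRFI1 at 0.88 (adjusted p = 0.00269), CHSY3 at 0.82 (adjusted p = 0.0381), KLF12 at 0.81 (adjusted p = 0.0461) and ZBED2 at 0.80 (adjusted p = 0.0146).

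Between 24 h and 4 h in siSTAT3 cells the TAM effect differed, as 24 h minus 4 h, in FOXQ1 by 1.14 (adjusted p = 0.0228), FLRT3 by 1.11 (adjusted p = 0.0027), ZBED2 by 1.06 (adjusted p = 0.00288), CRACDL by 0.92 (adjusted p = 0.0394), THBD by 0.65 (adjusted p = 0.0162) and PNRC1 by -0.99 (adjusted p = 0.000459).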

How the results depend on the processing

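The counts of calls moved with the setting, and a count has no direction to change. The 30 largest rises and falls were picked for arrays that do not overlap, so only the other scalings could have reversed them. None of the 30 was reversed. None of the 16 genes named for the siRNA difference was reversed either, and settings that changed only the spread could not reverse them. With the arrays of each comparison alone, 0 genes rose and 0 fell in siSTAT3 cells at 4 h, 47 changed in siSCM cells and 0 in siSTAT3 cells at 24 h, a setting that leaves fewer arrays in the fit. With the arrays of the same time, 34 rose and 7 fell, 32 differed between siRNAs, 324 changed in siSCM cells and 166 at 24 h. With a trend of the prior variance the counts were 199, 123, 197, 983 and 917, and with low signals filtered out 197, 136, 194, 1080 and 1009. With equal medians 64 rose and 32 fell. Under the limits of the methods 62 rose, 23 fell, 299 changed in siSCM cells and 240 at 24 h. Leaving out 1 array gave 51 to 79 rises, 21 to 38 falls, 70 to 80 differences between siRNAs, 446 to 523 changes in siSCM cells and 202 to 431 at 24 h, where leaving out a TAM array leaves 1. The differences in time, added later, numbered 213 with the filter, 212 with the trend and 10 on the 11 siSTAT3 arrays. Of the 162 genes 155 were shared with the filtered fit, 161 with the trend, 94 with equal medians and 36 with the fit of the 4 h arrays. The cause of these shifts was not tested.

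Replicate numbers paired the samples weakly at most. Same-numbered siSTAT3 arrays at 4 h had deviations correlated at 0.0213 to 0.0382 (median 0.026, against -0.014 for other pairs), and none of 3 pairs exceeded 0.1. Over all groups at 4 h the medians were 0.030 for same-numbered pairs and -0.025 for other pairs, and 2 of 18 same-numbered pairs exceeded 0.1. Over all groups of the series 10 of 77 did, so a weak link between same-numbered arrays is not excluded. With the replicate number as a block 95 genes rose and 49 fell, and 96, 622 and 457 genes were called for the difference between siRNAs, siSCM cells and 24 h. Of the 30 largest rises and falls, 325 of 420 settings kept the call and 95 lost it. The fit on the 6 arrays alone called none of the 30, so 0 of the 30 were called under every setting. Of the 16 genes named for the siRNA difference 10 were called under every setting. Their settings held no fit on 6 arrays alone, so these 2 counts cannot be compared.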
